A study of Mus musculus with 5 samples.

Results

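The comparison described here set mouse muscle taken 1 day after an injection of cardiotoxin against uninjected muscle, over all 217 miRNA assays of the study. The members were chosen by rule as every assay for a miRNA, so the 217 are all the miRNAs that the study measured. The 5 control small RNAs (U6, snoRNA135, snoRNA202, U87 and Y1) served for scaling only. The mice were C57BL/6J males aged 4 to 6 months, with no transgene or deletion named in the labels. The injured group received 100 µl of 2.5 µM cardiotoxin in the anterior compartment below the knee on both sides, and the tibialis anterior was taken after 1 day. The baseline group was not injected, so the needle and the saline carrier are part of the contrast and cannot be told apart from the toxin. The labels give 4 mice per time point. Each assay has 4 values at baseline and 4 at day 1, called wells below, and nothing in the files ties a value to a mouse. The p-values of the miRNA tests rest on the spread between wells within all 6 groups of the study, shared in part across miRNAs. That spread may be technical in part.

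Cardiotoxin is a snake venom peptide that lyses muscle fibres. It leaves the basal lamina and many satellite cells, the stem cells of muscle, in place. In the textbook course, neutrophils enter the damaged muscle first, monocytes and macrophages follow and clear the dead fibres, and satellite cells then divide and form new fibres. A miRNA is a short RNA cut from a hairpin. Its seed, bases 2 to 8, pairs with messenger RNAs and largely sets which of them it represses. miR-1, miR-133a and miR-133b are made in muscle fibres, and miR-223 and the miR-142 pair are made in white blood cells.

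The assays were TaqMan reverse-transcription PCR, which reports a threshold cycle (Ct). A lower Ct means more RNA, and 1 cycle is taken as a 2-fold step. Raw Ct values of different assays are not amounts that can be set against each other, since assays differ in efficiency. A miRNA was called detected in a group when at least 3 of the 4 wells were under Ct 35. By that rule 213 miRNAs were detected at baseline, 214 at day 1 and 211 in both, and those 211 were tested. Of the other members, 5 were detected in 1 group only and miR-298 in neither.

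The sequences below are those of the miRNAs on which the results turn, given 5′ to 3′ as RefSeq lists them for GRCm38.p6, with the seed in capitals. The first set holds the blood cell miRNAs that rose, and the second the miR-200 family, which holds 2 seeds and rose with both.
miR-223: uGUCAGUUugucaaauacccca
miR-142-5p: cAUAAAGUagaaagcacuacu
miR-142-3p: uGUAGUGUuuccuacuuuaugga
miR-200a: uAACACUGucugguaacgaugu
miR-141: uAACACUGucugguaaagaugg
miR-200b: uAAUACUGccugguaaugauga
miR-200c: uAAUACUGccggguaaugaugga
miR-429: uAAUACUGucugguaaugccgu

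The next set pairs miRNAs that share a seed and had unlike values at day 1, a difference that was not tested. The pairs, shown for their unlike values, are miR-351 with miR-125b-5p, miR-215 with miR-192, miR-107 with miR-103, and miR-130b with miR-130a.
miR-351: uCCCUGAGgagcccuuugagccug
miR-125b-5p: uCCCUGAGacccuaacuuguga
miR-215: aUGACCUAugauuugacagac
miR-192: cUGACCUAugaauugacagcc
miR-107: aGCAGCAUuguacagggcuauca
miR-103: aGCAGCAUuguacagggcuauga
miR-130b: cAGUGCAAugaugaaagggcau
miR-130a: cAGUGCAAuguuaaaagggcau

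The last set shows both arms of the miR-335 hairpin, whose ratio turned over at day 1, and miR-30c and miR-365, which were among the falls.
miR-335-5p: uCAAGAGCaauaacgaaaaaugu
miR-335-3p: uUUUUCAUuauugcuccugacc
miR-30c: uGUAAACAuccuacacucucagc
miR-365: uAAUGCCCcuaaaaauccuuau

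Of the 217 assays, 175 matched a RefSeq mature sequence by name, 46 under the same name and 129 under the current name of an older one.

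The amount of control RNA per well itself differed between the groups, so the scale is set out first. U6, the RNA of the spliceosome that TaqMan studies commonly use as reference, read Ct 14.65, 15.17, 14.92 and 14.60 at baseline and 13.30, 12.95, 11.48 and 12.44 at day 1. All 4 day 1 wells lay below the baseline wells, a shift of -2.29 cycles (exact permutation test, two-sided p = 0.0286, adjusted p over the 5 controls 0.0476). Y1, a cytoplasmic RNA bound by the Ro protein, moved the other way, from 20.87, 20.72, 19.99 and 19.66 to 23.02, 23.50, 21.96 and 22.16, with no overlap (2.35 cycles, exact permutation p = 0.0286, adjusted 0.0476). The value 0.0286 is the smallest that 4 wells against 4 can give. The small nucleolar RNA snoRNA135 shifted by -1.74 cycles (exact permutation p = 0.0286, adjusted 0.0476), U87 by -0.84 (exact permutation p = 0.0857, adjusted 0.107) and snoRNA202 by -0.25 (exact permutation p = 0.257, adjusted 0.257).

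Changes are therefore given on 2 scales, as log2 differences of day 1 minus baseline in which a positive value means more RNA at day 1. The first is against the median miRNA, that is, to the median shift of the 205 miRNAs under Ct 35 in every well of the 6 groups of the study. The second is relative to U6. The scales differ by a constant of 1.91 log2 units, so they move the zero and leave the order of the miRNAs as it is. The words rose and fell are kept for miRNAs for which limma's moderated test gave a Benjamini-Hochberg adjusted p under 0.05 with the same sign on both scales.

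Relative to the median miRNA, 87 of 211 miRNAs were called higher (41.2%) and 82 lower (38.9%). Relative to U6, 19 were called higher (9.00%) and 139 lower (65.9%). On both scales together, 19 rose (9.00%) and 82 fell (38.9%). The rises were the 19 called relative to U6, and the falls were the 82 called against the median miRNA. The other scale removed none of them, so the rule gave neither group a second check. A rise had to exceed the 1.91 log2 units between the scales and a fall did not, so the 2 counts cannot be compared. Each of the 211 passed on at least 1 of the scales, and 15 were called higher on the first and lower on the second. The scales lie 1.91 log2 units apart, so a value near 0 on one is not near 0 on the other. Passing on 1 scale thus does not show that a miRNA changed. Every miRNA that did not pass against the median miRNA was called lower relative to U6. The change was over 2-fold for 62.1% of the miRNAs against the median miRNA and for 73.0% relative to U6, and the median size of the change was 1.27 and 2.20 log2 units. The raw Ct ranges of the groups did not overlap for 141 of the 211 miRNAs, 91 of them with more RNA at day 1 and 50 with less. Ranges that do not overlap, as given for single miRNAs below, were thus the more common state.

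**Figure D1:**
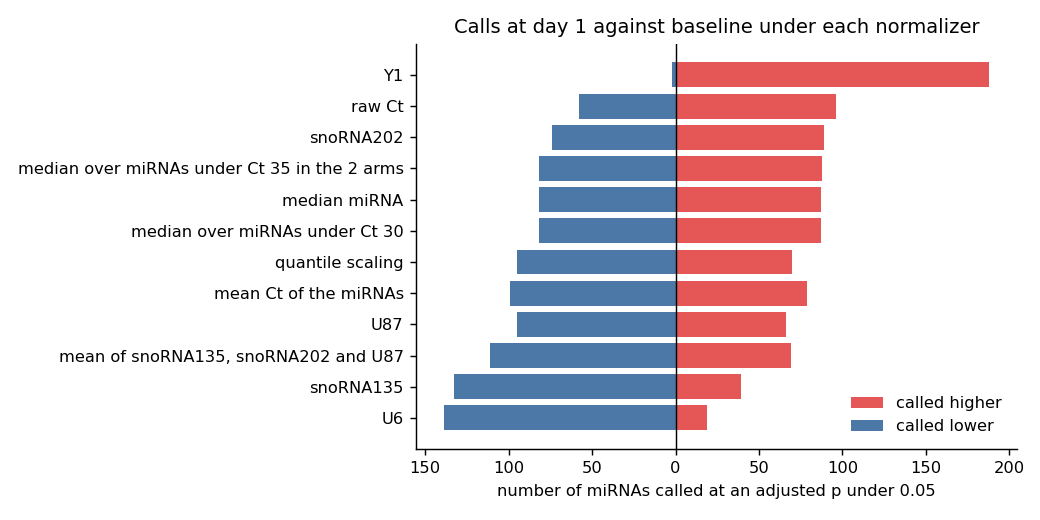
Number of the 211 tested miRNAs called higher (right) or lower (left) at day 1 than at baseline under each of 12 scalings, 4 wells per group. The split runs from 19 higher and 139 lower relative to U6 to 188 higher and 2 lower relative to Y1, with 87 and 82 against the median miRNA.

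How many miRNAs are called higher depends on the reference, as the plot of calls by scaling shows. Higher calls made up 51.5% of all calls against the median miRNA, 12.03% relative to U6, 22.7% relative to snoRNA135, 54.6% relative to snoRNA202, 41.0% relative to U87 and 98.9% relative to Y1. All 19 rises kept a positive sign under all 12 scalings. A rise had to pass relative to U6, which lay lowest of the 12, at -1.91 log2 units from the median scale. Apart from quantile scaling, which is no constant shift, the positive sign thus follows from the definition. The 12 are not separate lines of evidence, as medians over other sets of miRNAs lay at -0.005 and 0.02 log2 units from the first. A list's median moves by the same constants. If positive relative to U6, or negative relative to Y1, it keeps that sign under every constant shift. The counts of scalings given for lists below are therefore no repeated checks. Of the 82 falls, 76 had a positive value relative to Y1, and 1 had one with no scaling at all. The 6 falls that stayed negative relative to Y1 were miR-1 (-2.11 ± 0.39 SE), miR-486 (-0.90 ± 0.44), miR-107 (-0.75 ± 0.43), miR-365 (-0.74 ± 0.31), miR-133a (-0.32 ± 0.38) and miR-133b (-0.19 ± 0.29). Only miR-1 (limma, adjusted p = 1.69e-05) and miR-365 (adjusted p = 0.0274) of these passed relative to Y1. Every fall named below, apart from these 6, thus has the opposite sign on the Y1 scale.

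The fibre miRNAs were lower at day 1. All 5 members of the list of muscle-enriched miRNAs fell, beside a background of 38.9% of all tested miRNAs, and the list's median change was -3.06 against the median miRNA and -4.97 relative to U6, beside -0.04 and -1.95 over all tested miRNAs. The list's median was negative under all 12 scalings, including Y1 (-0.32). In whole muscle, fewer fibres and less of a miRNA in each fibre cannot be told apart.

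miR-1, which promotes muscle differentiation, read Ct 13.12, 13.14, 12.94 and 12.48 at baseline. At day 1 its wells read 16.90, 19.18, 16.09 and 17.36, all above every baseline well, with the second well the highest by over 1 cycle. Relative to the median miRNA it fell by 4.85 ± 0.47 (SE) on the log2 scale, or 28.8-fold (limma, adjusted p = 5.75e-09), the largest fall among the 211. Relative to U6 the change was -6.75 (limma, adjusted p = 3.9e-11).

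miR-133a, which is made from the same transcripts as miR-1, had the lowest baseline Ct of its list, with wells at 9.33, 9.59, 9.19 and 9.30. Its day 1 wells were at 12.26, 13.11, 10.94 and 11.79, again clear of baseline. It fell by 3.06 ± 0.43 on the log2 scale against the median miRNA, or 8.32-fold (limma, adjusted p = 1.29e-06). With quantile scaling the change was -0.99 and did not pass (limma, adjusted p = 0.0897). Its relative miR-133b went from 14.69, 15.42, 15.12 and 14.62 to 17.71, 18.30, 16.48 and 17.50, a fall of 7.57-fold (limma, adjusted p = 5.91e-09).

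miR-486, made from an intron of the ankyrin gene Ank1 and abundant in both muscle and red cells, went from Ct 26.55, 27.26, 26.15 and 25.84 to 30.52, 31.17, 28.28 and 28.84. No day 1 well reached the baseline range, and the first and second day 1 wells lay over 1 cycle above the other 2. It fell 12.4-fold (limma, adjusted p = 5.03e-06). miR-499, which lies in an intron of the slow myosin gene Myh7b, went from 27.70, 27.92, 27.44 and 26.76 to 28.64, 30.84, 29.48 and 29.38, a fall of 5.71-fold (limma, adjusted p = 4.92e-05). Its day 1 range began less than 1 cycle above its baseline range.

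**Figure D2:**
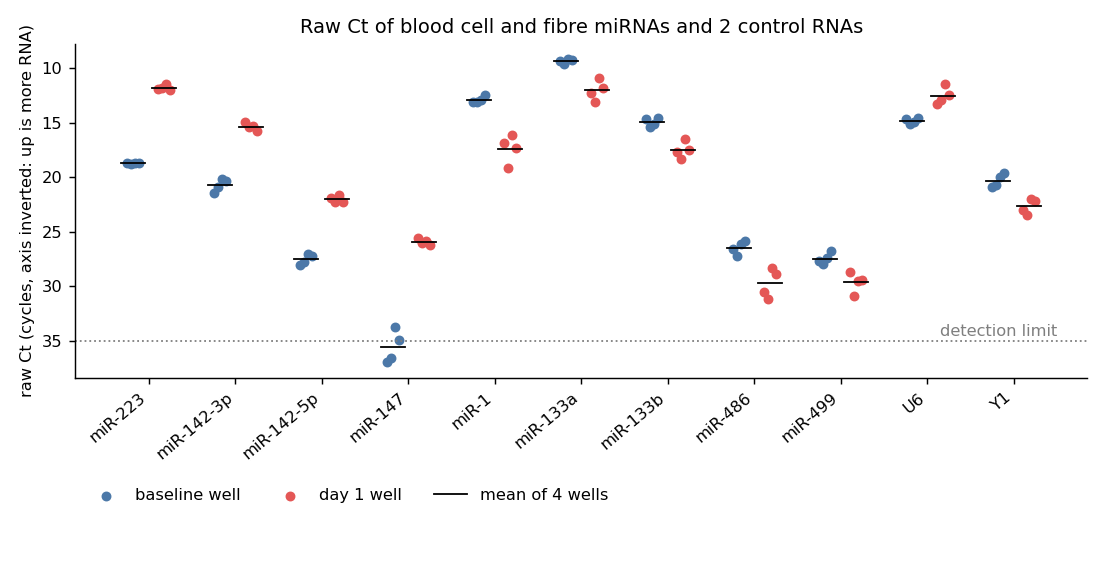
Raw Ct of each well (points) and group mean (bars, n = 4 wells) for blood cell miRNAs, fibre miRNAs and 2 control RNAs, with the Ct axis inverted so that up is more RNA and the limit of detection at Ct 35 as a dotted line. miR-223, both arms of miR-142 and miR-147 sit higher at day 1 and the 5 fibre miRNAs lower, in every well, while U6 rose and Y1 fell.

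White-cell miRNAs stood among the 19 rises. miR-223, which is made mainly by neutrophils and other myeloid cells and restrains their maturation, read Ct 18.69, 18.78, 18.74 and 18.72 at baseline and 11.93, 11.87, 11.47 and 12.02 at day 1. The wells within each group lay within 1 cycle of each other, and the groups were over 6 cycles apart. The rise was 6.53 ± 0.12 (SE) on the log2 scale against the median miRNA, or 92.1-fold (limma, adjusted p = 9.7e-22), and 4.62 relative to U6 (limma, adjusted p = 7.23e-11).

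Both arms of miR-142, the hairpin expressed throughout the blood lineages, rose. miR-142-3p went from 21.46, 20.89, 20.14 and 20.37 to 14.97, 15.41, 15.32 and 15.79, which is 31.1-fold against the median miRNA (limma, adjusted p = 4.4e-14). miR-142-5p went from 28.06, 27.80, 27.07 and 27.18 to 21.94, 22.25, 21.65 and 22.26, which is 34.7-fold (limma, adjusted p = 8.73e-18). Neither arm's groups overlapped in raw Ct, as in 91 of the 211 tested miRNAs with more RNA at day 1. The ratio of the arms did not pass a test of its change (0.16 ± 0.17, limma, adjusted p = 0.455).

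miR-147, which macrophages make when Toll-like receptors are stimulated, was under Ct 35 in only 2 baseline wells. It read 36.96, 36.55, 33.74 and 34.91 there and 25.57, 26.04, 25.81 and 26.21 at day 1. With the baseline wells over the limit set to Ct 35, it was at least 331-fold higher against the median miRNA and at least 88.2-fold higher relative to U6. Set against the labelled tissue, skeletal muscle, the fibre marker miR-1 was detected in every well of both groups, and miR-223, miR-142-3p and miR-147 in every day 1 well.

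The rest of the blood cell list had smaller values. Of its 9 tested members 3 rose on both scales (background 9.00%), 7 were called higher against the median miRNA (background 41.2%), and 2 were called lower relative to U6 (background 65.9%). The list's median change was 1.60 against the median miRNA and positive under 11 of the 12 scalings, but -0.31 relative to U6. miR-146a, a brake on inflammatory signalling, went from 18.09, 18.30, 18.19 and 18.54 to 16.02, 15.52, 15.16 and 15.85, a change of 2.26 ± 0.19 against the median miRNA that left 0.35 relative to U6 (limma, adjusted p = 6.34e-10 and 0.476). Its relative miR-146b differed by 1.26 and -0.65. The 2 arms of miR-342, a miRNA of lymphoid and myeloid cells, differed by 1.08 for miR-342-3p and 1.60 for miR-342-5p against the median miRNA, and by -0.83 and -0.31 relative to U6.

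miR-155, which activated macrophages and lymphocytes make, stayed within 1 cycle of its baseline. Its wells were 19.66, 19.71, 19.62 and 19.56 at baseline and 19.23, 19.24, 18.70 and 19.42 at day 1. The change was 0.11 ± 0.15 against the median miRNA (limma, adjusted p = 0.522) and -1.80 relative to U6, where it was called lower. miR-150, a miRNA of mature lymphocytes, differed by 0.42 ± 0.21 (limma, adjusted p = 0.0709) and by -1.49 relative to U6, where it was also called lower. miR-451, the defining miRNA of red cells, changed by 1.58 ± 0.36 against the median miRNA (limma, adjusted p = 0.00038) and by -0.33 relative to U6. Its baseline wells spread from 19.18 to 21.53, so its groups did not overlap in raw Ct (17.90 to 18.88 at day 1) but did so on the median scale. The part of residual blood in any of these values was not tested.

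**Figure D3:**
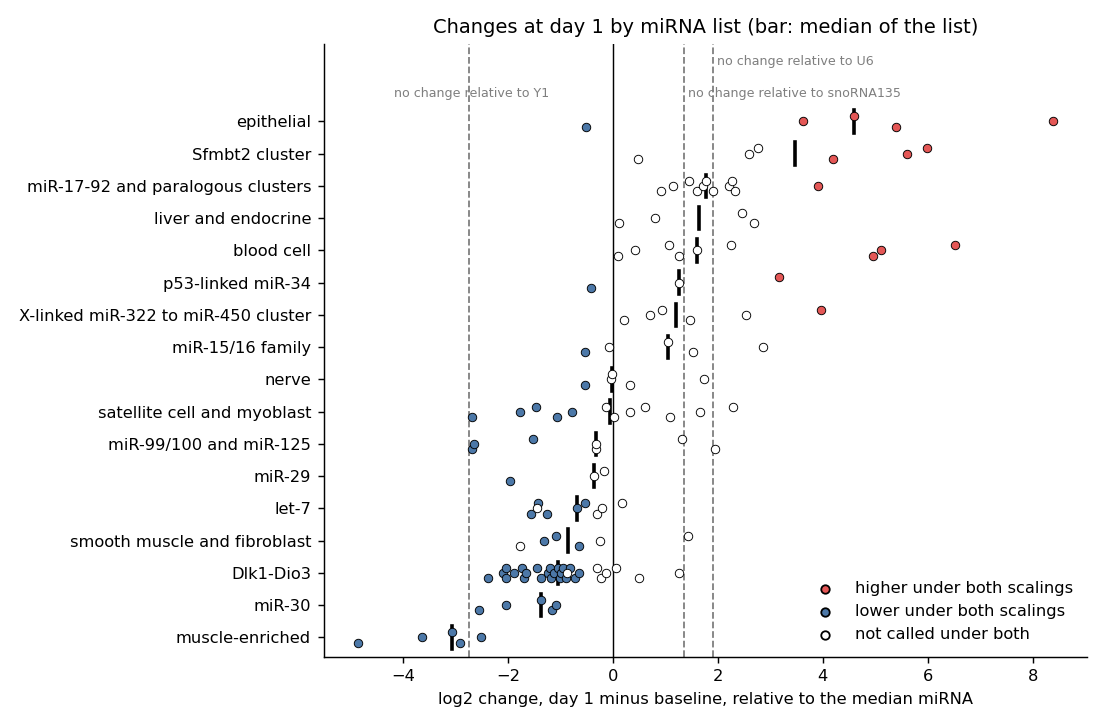
Change of every tested member of 17 lists (points) against the median miRNA, 4 wells per group, with each list's median as a bar and dashed lines where the change would be 0 relative to Y1, snoRNA135 or U6. The muscle-enriched list lies lowest with a median of -3.06 and the epithelial list highest with 4.60, and most of the let-7, miR-30 and Dlk1-Dio3 members lie between the Y1 line and 0, so that they turn positive relative to Y1.

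The miR-200 family also rose. Its 5 members come from 2 gene clusters, miR-200a, miR-200b and miR-429 in one and miR-141 and miR-200c in the other, and they are known as keepers of the epithelial state. miR-200a had baseline wells at 34.73, 35.77, 34.12 and 33.46, at the edge of detection, and day 1 wells at 25.86, 26.11, 25.14 and 25.90. The rise was 8.38 ± 0.47 (SE) against the median miRNA (limma, adjusted p = 7.92e-13) and 6.47 relative to U6. miR-429 was under Ct 35 in only 1 baseline well (35.03, 36.30, 34.67 and 37.61) and in all 4 at day 1 (28.57, 28.45, 25.95 and 26.28), at least 149-fold higher against the median miRNA and 39.7-fold on the U6 scale.

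The other cluster started at lower Ct values. miR-200c went from 26.95, 27.43, 26.04 and 26.99 to 22.14, 21.84, 21.46 and 22.03, a 24.3-fold rise against the median miRNA (limma, adjusted p = 4.45e-15). miR-141 rose by 5.40 on the log2 scale, from wells between 31.95 and 33.57 to wells between 26.58 and 27.29. miR-200b rose by 3.62, from wells between 28.85 and 31.13 to wells between 25.05 and 26.16. None of these wells overlapped between groups, as in 91 of the 211 tested miRNAs with more RNA at day 1.

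The list of epithelial miRNAs also held miR-203, the miRNA of keratinocytes, which was not among the rises. Its wells were 21.79, 22.21, 21.84 and 21.80 at baseline and 22.46, 21.90, 21.78 and 21.97 at day 1, a change of -0.50 ± 0.18 against the median miRNA (limma, adjusted p = 0.0164) and -2.41 relative to U6. The call was lost without the first baseline well (-0.41, limma, adjusted p = 0.0586) or the first day 1 well (-0.40, adjusted p = 0.0624), and the raw Ct ranges overlapped. Of the 5 tested members of the list, 4 therefore rose (background 9.00%) and 1 fell (background 38.9%), with a median of 4.60 that was positive under all 12 scalings.

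Beside the miR-200 and blood cell miRNAs, the largest rises belonged to miR-685 and the miR-467 family. miR-685 went from 28.73, 28.80, 29.99 and 27.63 to 19.41, 19.31, 19.54 and 19.50, the largest change among the 211 tested, at 8.96 ± 0.77 (SE) against the median miRNA, or 499-fold (limma, adjusted p = 7.29e-10). Its day 1 wells lay within 1 cycle of each other, clear of baseline by over 8. miR-680 went from 30.37, 39.01, 38.73 and 34.77 to 24.67, 23.82, 23.47 and 24.06, at least 674-fold higher with baseline wells set to the limit. Its baseline wells spread over 8 cycles, so the bound rests on how those wells are treated.

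The miR-467 miRNAs lie in a large cluster in an intron of Sfmbt2. Of the 6 members of that list 3 rose (background 9.00%) and 5 were called higher against the median miRNA (background 41.2%), with a median change of 3.48 that was positive under all 12 scalings. miR-467d rose by 5.98, from wells between 31.22 and 33.87 to wells between 25.97 and 26.41, miR-467c by 5.62 and miR-467a by 18.3-fold. miR-467e and miR-467b differed by 2.76 and 2.60 against the median miRNA and by 0.85 and 0.69 relative to U6. miR-669a, of the same cluster, differed by 0.49 and -1.42. The miR-467 sequences are close to each other, and how far their assays detect each other was not tested.

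The other rises were single miRNAs. miR-215 went from wells between 30.41 and 32.17 to wells between 25.91 and 26.36, a rise of 4.69 ± 0.43 against the median miRNA (limma, adjusted p = 1.89e-09). The others were miR-682 (4.08), miR-351 (3.97), miR-18a (3.90), miR-744 (3.40), miR-130b (3.27), miR-34c (3.17) and miR-652 (3.07). Relative to U6 these 7 rises ranged from 1.17 for miR-652 to 2.17 for miR-682.

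miR-18a belongs to the miR-17-92 cluster, which drives the cell cycle and is transcribed under MYC and E2F. All 11 members of that cluster and its paralogues were called higher against the median miRNA (background 41.2%), with changes from 0.91 for miR-92a to 3.90 for miR-18a and a median of 1.77. Relative to U6, miR-18a was still higher, miR-92a was called lower (-0.99, limma, adjusted p = 0.0247) and the other 9 did not pass. The list's median was -0.14 on that scale and positive under the other 11 scalings. miR-18a went from 26.15, 25.68, 25.05 and 25.14 to 20.99, 21.11, 21.17 and 21.60, a 15.0-fold rise against the median miRNA (limma, adjusted p = 2.48e-15). miR-17 went from 18.03, 18.07, 17.88 and 17.95 to 15.57, 15.01, 15.09 and 15.63, a change of 2.27 ± 0.13, and its near-identical paralogue miR-106a by 2.22 ± 0.13. Relative to U6 those 2 values were 0.36 and 0.31 (limma, adjusted p = 0.452 and 0.521).

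In the miR-15/16 family, which restrains the cell cycle, values ran in both directions. miR-15b differed by 2.87 against the median miRNA (0.96 relative to U6, limma, adjusted p = 0.0643), miR-16 by 1.53, miR-15a by 1.06 and miR-195 by -0.08. miR-497, the cluster partner of miR-195, fell by 0.53 on the log2 scale (limma, adjusted p = 0.0159), a call lost without the last baseline well (-0.50, adjusted p = 0.0501), without the third day 1 well (-0.32, adjusted p = 0.0953) or with the day 1 and baseline groups fitted alone (adjusted p = 0.0842). The family's median of 1.06 was negative relative to U6 and snoRNA135.

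miRNAs linked to satellite cells and myoblasts went in both directions. Of 12 tested members 5 fell (background 38.9%), 4 were called higher against the median miRNA (background 41.2%), and the median was -0.05 against the median miRNA and positive under 3 of the 12 scalings. miR-128a, highest in brain and muscle, fell by 2.69 ± 0.17 and miR-26a, a repressor of Ezh2, by 1.77 ± 0.16 on the log2 scale (limma, adjusted p = 8.65e-12 and 2.06e-09). miR-489, which keeps satellite cells quiescent, went from 26.11, 26.67, 26.19 and 26.55 to 27.67, 27.74, 27.05 and 27.38, a fall of 1.46 ± 0.37 on the log2 scale (limma, adjusted p = 0.00113).

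miR-31, a repressor of the Myf5 messenger RNA in resting satellite cells, moved the other way from miR-489. It went from 27.05, 26.82, 26.50 and 25.21 to 23.67, 23.79, 23.58 and 23.83, a change of 2.29 ± 0.24 against the median miRNA (limma, adjusted p = 1.79e-08) and 0.39 relative to U6 (adjusted p = 0.407). miR-222 differed by 1.66 and -0.25 on the 2 scales. miR-27b fell by 1.07 on the log2 scale and miR-27a differed by 0.62 and -1.28.

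Outside the muscle list, the largest falls were of miR-107, miR-365, miR-128a, miR-100, miR-99a, miR-190 and miR-30c. miR-365 went from 18.16, 18.28, 17.60 and 17.49 to 20.70, 21.60, 20.42 and 21.15, an 11.1-fold fall against the median miRNA (limma, adjusted p = 4.73e-10). miR-193b, its neighbour in the same cluster and known from brown fat and muscle, went from 16.91, 16.95, 16.80 and 16.88 to 19.29, 19.05, 18.36 and 18.94, a 5.31-fold fall. miR-107 went from 29.01, 29.11, 28.58 and 28.03 to 33.00, 34.17, 29.74 and 30.21, and its SE of 0.60 was the widest among the 12 largest falls (-3.48, limma, adjusted p = 1.99e-05).

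miR-100 and miR-99a share a seed, ACCCGUA, and fell by almost the same amount, by 2.68 and 2.65 on the log2 scale, while miR-99b with that seed differed by -0.33 (limma, adjusted p = 0.374). miR-190 fell by 2.55 on the log2 scale, from wells between 23.94 and 24.72 to wells between 26.24 and 26.84.

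All 5 members of the miR-30 family fell (background 38.9%), with a median of -1.36 that was 1.37 relative to Y1. miR-30c, a miRNA abundant in heart and muscle, went from 13.49, 13.48, 13.14 and 13.08 to 15.47, 15.69, 14.95 and 15.72, a fall of 5.83-fold (limma, adjusted p = 1.32e-11). miR-30b fell by 2.04, miR-30e by 1.36, miR-30a by 1.15 and miR-30d by 1.08 on the log2 scale. miR-30c and miR-30e lie within 10 kb of each other.

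In the let-7 family, which marks differentiated cells, 5 of 9 tested members fell (55.6%, background 38.9%), with a median of -0.69 that was 2.05 relative to Y1. let-7f, let-7d and let-7a, which lie together, fell by 1.56, 1.42 and 1.25 on the log2 scale, and let-7i, at the other end, differed by 0.17. miR-98, of the same family, had baseline wells at 30.20, 29.20, 36.18 and 26.23, and its change of -1.45 ± 1.35 did not pass (limma, adjusted p = 0.324). Among the 3 miR-29 miRNAs, which repress collagens, miR-29c fell by 1.96 ± 0.43 on the log2 scale, while miR-29a and miR-29b differed by -0.37 and -0.17.

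The imprinted Dlk1-Dio3 region holds the largest miRNA cluster of the genome, expressed from the maternal copy. Of its 29 tested members 22 fell (75.9% of them, background 38.9%) and 28 were called lower relative to U6 (background 65.9%), with a median of -1.04 against the median miRNA that was 1.69 relative to Y1. miR-329 went from 29.96, 29.29, 28.74 and 28.70 to 31.21, 30.63, 30.26 and 31.44, a fall of 2.10 ± 0.22 on the log2 scale (limma, adjusted p = 1.73e-08). miR-543 and miR-337-3p both fell by 2.03. miR-370 fell by 2.38 ± 0.68 on the log2 scale (limma, adjusted p = 0.00324), but its day 1 wells (33.19, 34.58, 30.25 and 30.18) overlapped the baseline range of 29.16 to 31.84. With the day 1 and baseline groups fitted alone it did not pass (limma, adjusted p = 0.0626).

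The member of the region called higher on the median scale was miR-494, at 1.27 against the median miRNA and -0.64 relative to U6. miR-134, miR-409-3p, miR-379 and miR-667 lay within 0.3 of the median miRNA. miR-665 was detected at baseline only, in 3 wells (34.19, 34.41, 32.71 and 35.69), and read 35.88, 35.44, 32.79 and 34.27 at day 1, with overlapping ranges, and no bound is given because a baseline well was itself over the limit. Another imprinted miRNA, miR-675-3p, made from the H19 RNA, went from 30.28, 29.04, 29.04 and 27.81 to 40, 40, 34.26 and 36.34, at least 71.4-fold lower against the median miRNA and 268-fold on the U6 scale. The 40 is the last cycle and stands for no signal.

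The remaining lists hold markers of other cells found in muscle. Of the endothelial pair, miR-126-3p, a guardian of vessel integrity, read 12.88, 12.99, 12.78 and 12.79 at baseline and 12.56, 12.42, 12.10 and 12.18 at day 1, a change of 0.16 ± 0.13 against the median miRNA (limma, adjusted p = 0.269) and -1.75 relative to U6. miR-126-5p differed by -0.02 ± 0.20 and -1.93. Both arms were called lower relative to U6 (background 65.9%).

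Among 6 miRNAs of smooth muscle and fibroblasts 3 fell (background 38.9%), with a median of -0.86 that was 1.88 relative to Y1. miR-145, which keeps smooth muscle contractile, fell by 1.32 ± 0.16 and its cluster partner miR-143 differed by -0.24. miR-199a-3p fell by 1.08 and miR-214 by 0.64 on the log2 scale. miR-21, raised in fibrosis and in inflammation, went from 19.79, 19.62, 19.31 and 18.88 to 17.63, 17.36, 17.59 and 17.76, a change of 1.43 ± 0.18 against the median miRNA and -0.48 on the U6 scale. The part of each cell type in the changes of the other lists was not tested.

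Of 5 nerve miRNAs 1 fell (background 38.9%). It was miR-218 of motor neurons, by 0.53 on the log2 scale (limma, adjusted p = 0.0157, raw Ct ranges overlapping). miR-132, which neurons make on stimulation, differed by 1.73 against the median miRNA and -0.17 relative to U6. miR-9, miR-129-3p and miR-138 differed by -0.04, -0.01 and 0.33 against the median miRNA. Of 4 miRNAs known from liver and endocrine cells, miR-7b and miR-7a differed by 2.70 and 2.46 against the median miRNA and by 0.79 and 0.55 relative to U6. miR-210, the target of hypoxia-inducible factor, differed by 1.17 ± 0.43 (limma, adjusted p = 0.0183) and by -0.74 relative to U6.

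In the p53-linked miR-34 family the members split. miR-34c rose by 3.17 ± 0.26 against the median miRNA (limma, adjusted p = 2.72e-10), from wells at 30.69, 30.59, 30.32 and 28.54 to wells at 26.45, 26.32, 26.50 and 26.65. miR-34b-3p, from the same transcript, differed by 1.26 and -0.65 on the 2 scales. miR-34a, from another gene, fell by 0.41 ± 0.13 on the log2 scale (limma, adjusted p = 0.00711), a call lost with the day 1 and baseline groups fitted alone (adjusted p = 0.0656).

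miRNAs with the same seed did not always have like values. Of 10 seeds shared by at least 3 tested miRNAs, the narrowest spread was that of AUUGCAC, whose members miR-92a, miR-25 and miR-32 ran from 0.91 to 1.23 against the median miRNA. AAAGUGC, the seed of miR-17 and 5 others, ran from 1.45 to 2.27. The widest was CCCUGAG, from -1.53 for miR-125b-5p to 3.97 for miR-351, both of which passed on both scales.

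miR-351 went from 32.53, 34.90, 34.96 and 33.71 to 30.72, 28.51, 29.25 and 30.19, and miR-125b-5p from wells between 17.95 and 18.47 to 19.07, 19.55, 19.44 and 19.27. Their capitals in the sequences above are the same 7 bases, and their 3′ parts differ. The pair miR-215 and miR-192 share UGACCUA, and miR-215 rose (4.69) while miR-192 was at 0.81, which was -1.09 relative to U6. miR-107 and miR-103 share GCAGCAU, and miR-107 fell (-3.48) while miR-103 differed by -0.24 ± 0.30. miR-130b rose by 3.27 and miR-130a differed by 0.21. No difference between the members of these pairs was tested. Over the 171 tested miRNAs with a matched sequence, GC content and change had a Spearman rho of -0.03 across miRNAs, which are not independent replicates. Mean baseline Ct and change against the median miRNA had a rho of 0.24 over the 211. Assays with a weaker baseline signal thus tended to the higher changes, and the baseline wells enter both quantities.

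Neighbouring miRNA genes shared a direction in some places. By the order of genes in RefSeq GRCm38.p6, miR-193b and miR-365, miR-200a and miR-200b, and miR-141 and miR-200c lie within 10 kb of each other and moved the same way. miR-215 and miR-194 are also such neighbours, and miR-194 differed by 0.12 ± 0.25 (limma, adjusted p = 0.668). miR-99a fell and its neighbour let-7c differed by -0.21. In the X-linked cluster of miR-322 to miR-450, miR-351 (3.97) and miR-503 (2.54) lay above miR-322 (0.22), miR-450a-5p (0.71) and miR-542-3p (0.94).

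For 17 hairpins both arms were measured. The ratio of the 5p to the 3p arm needs no scaling, because any reference cancels, so it is the same for U6, Y1 and the median miRNA. It differed between day 1 and baseline for 7 of the 17 (41.2%, limma, adjusted p under 0.05). The ranges of the 4 day 1 and 4 baseline ratios did not overlap for any of these 7. They did not overlap for miR-434 either, whose ratio did not pass (0.37 ± 0.19, limma, adjusted p = 0.131), so a lack of overlap does not mark the called ratios alone. The ratio is taken well by well, which assumes that the same position in the file is the same RNA for both assays. The assumption touches the error and not the difference of the means.

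The largest shift was that of miR-125b, known to hold back myogenic differentiation. RefSeq lists the miR-125b-5p sequence for 2 hairpins, and the miR-125b-3p assay matched no RefSeq sequence by name. The ratio may therefore not be that of a single hairpin, and the part of each was not tested. Its log2 ratio of 5p to 3p was 10.23, 10.89, 11.34 and 11.54 at baseline and 8.26, 7.07, 6.98 and 7.77 at day 1, a difference of -3.48 ± 0.46 (SE), or 11.2-fold (limma, adjusted p = 1.21e-06). The 5p arm fell and the 3p arm differed by 1.95 against the median miRNA and 0.04 on the U6 scale. The miR-125a hairpin went the same way, by -1.64 ± 0.42 (limma, adjusted p = 0.00196).

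In miR-335, an imprinted miRNA from an intron of Mest, the ratio turned over. The log2 ratio was 1.53, 1.44, 2.08 and 1.67 at baseline and -0.83, -0.81, -1.28 and -1.47 at day 1, so the 5p arm had the lower Ct in every baseline well and the 3p arm in every day 1 well. The difference was -2.78 ± 0.26 (limma, adjusted p = 8.4e-09). Since Ct values of 2 assays are not amounts, the change of the ratio is the measured quantity, not which arm is the more abundant.

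The other called ratios were those of miR-339 (-1.35 ± 0.22), miR-331 (1.63 ± 0.23), miR-337 (1.31 ± 0.20) and miR-340 (1.27 ± 0.10). The smallest adjusted p of the 17 belonged to miR-340, whose log2 ratio was 0.85, 0.80, 1.04 and 0.98 at baseline and 2.19, 2.17, 2.27 and 2.12 at day 1 (limma, adjusted p = 6.69e-10). For the other 10 hairpins the ratio differed by at most 0.72, and they include miR-142, miR-126, miR-324 and miR-532.

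**Figure D4:**
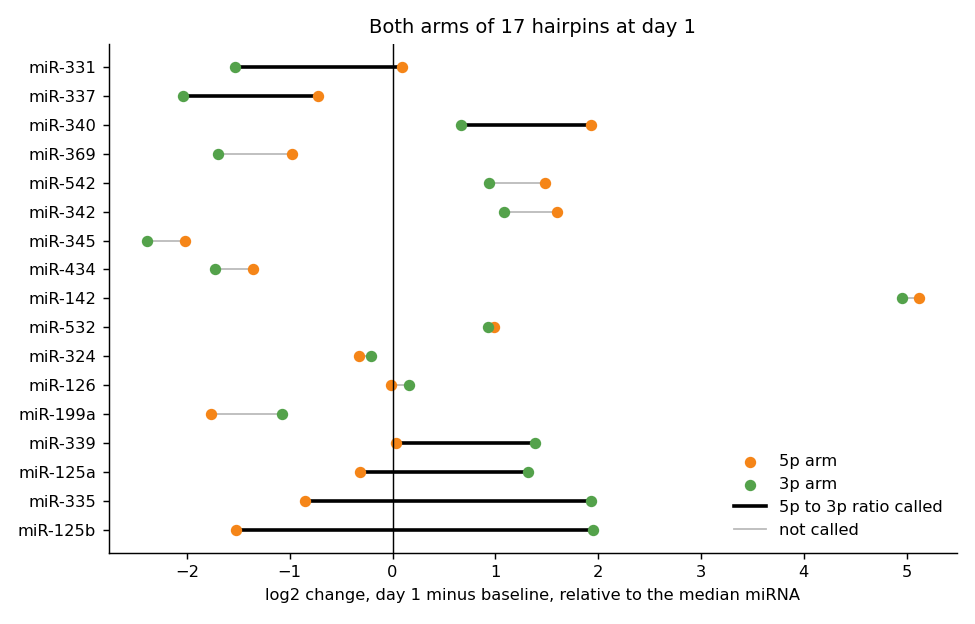
Change of the 5p arm (orange) and the 3p arm (green) of 17 hairpins at day 1 against the median miRNA, 4 wells per group, joined by a thick black line where the ratio of the arms passed at an adjusted p under 0.05 (7 hairpins). The arms of miR-125b and miR-335 lie farthest apart, at -1.53 and 1.95 and at -0.85 and 1.93, while the arms of miR-142 lie together near 5.

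The day 3 muscle of the same study, taken 3 days after the same injection, shows where the day 1 levels stood in the course of the injury. Day 3 was compared with day 1, a difference that leaves out the baseline wells, though these enter the median scale and the spread of the fit. It shares the day 1 wells with the comparison above, so the values stand side by side. On both scales, 66 of 213 tested miRNAs were higher at day 3 than at day 1 (31.0%) and 28 were lower (13.1%).

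miR-223 came down to 14.59, 14.23, 14.04 and 14.28, between the day 1 and the baseline wells, a difference of -2.79 ± 0.12 from day 1 against the median miRNA, lower on both scales. miR-142-3p read 15.60, 16.72, 15.60 and 15.98 and did not pass on both scales (-0.93 and -0.14). miR-685 differed from day 1 by -4.59, miR-680 by -5.15 ± 1.21 and miR-215 by -4.15, each lower on both scales. The miR-215 wells at day 3 (30.50, 30.69, 29.19 and 29.10) reached into the baseline range.

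miR-200a, miR-141 and miR-200b differed by -0.73, -0.83 and -0.33 from day 1 against the median miRNA and did not pass on both scales, and miR-200c fell by 2.02 on the log2 scale. miR-135a, a miRNA named only because of its day 3 value, went from wells between 25.04 and 25.36 at baseline to between 21.75 and 22.56 at day 1 and between 25.65 and 26.21 at day 3. Its change at day 1 was 2.69 against the median miRNA and 0.78 on the U6 scale.

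The fibre miRNAs went lower still. miR-133a read 15.30, 13.05, 14.71 and 14.99 at day 3, a further -2.81 ± 0.43 against the median miRNA and -2.02 relative to U6. miR-486 and miR-133b also fell on both scales, and miR-1 differed by -1.35 and -0.56 and did not pass on both. miR-499 was over Ct 35 in all 4 day 3 wells (36.00, 35.97, 36.19 and 37.01) and was not tested.

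Most Dlk1-Dio3 miRNAs were higher at day 3 than at day 1. Of the 29 tested, 25 passed on both scales (86.2% of them, background 31.0%), with a median of 1.35. miR-370 read 26.00, 26.38, 25.68 and 26.27 at day 3, a difference of 5.64 ± 0.68 from day 1, and miR-433 read 28.80, 28.81, 27.96 and 28.69, a difference of 4.45 ± 0.31. miR-31 was higher at day 3 than at day 1 by 3.93 ± 0.24 and miR-351 by 3.35 ± 0.52. Both had been called higher at day 1 than at baseline against the median miRNA, and only miR-351 of these 2 had also passed relative to U6. miR-107 turned back, by 1.83 ± 0.60.

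**Figure D5:**
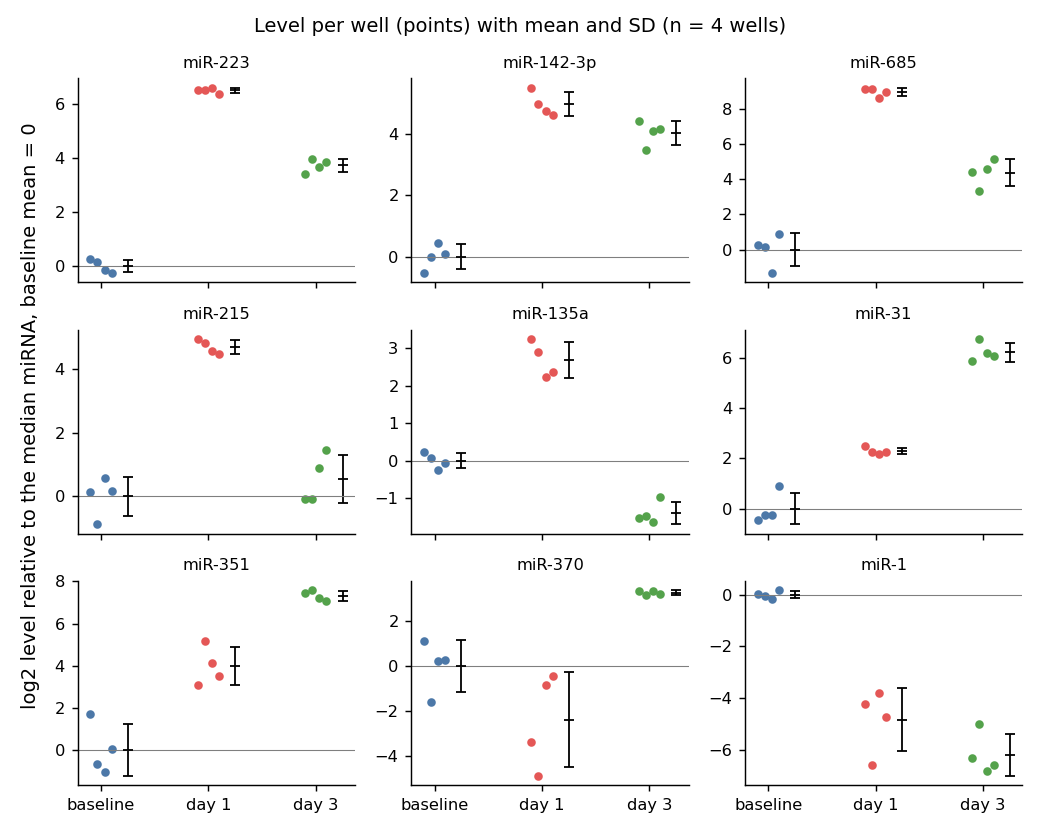
Level of 9 miRNAs in each well (points) at baseline, day 1 and day 3 against the median miRNA with the baseline mean set to 0, and the mean and SD of 4 wells beside them, with a separate axis for each miRNA. miR-223, miR-685, miR-215 and miR-135a are highest at day 1, miR-31 and miR-351 are highest at day 3, and miR-370 lies below baseline in mean at day 1 and above it at day 3.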

How the data were processed

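TaqMan assays for 222 small RNAs were run for 40 cycles on total RNA with an integrity number above 9, isolated with a miRNeasy kit, per the labels' protocols. The deposited files hold raw Ct values, to which the authors applied no normalization. The 5 files repeat the same baseline values, which were used once. How the Ct threshold was set and the RNA per reaction are not given in these sources.

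Ct was negated and scaled per well by the median shift of 205 miRNAs or by U6. limma 3.58.1 (R 4.3.3) was fitted over all 6 groups (lmFit, eBayes). Wells at Ct 40 were left out. p-values were two-sided and Benjamini-Hochberg adjusted over all miRNAs tested, or over the 17 hairpins. The fit was also run on simulated data in which most miRNAs were unchanged, rises and falls were balanced and U6 kept its level. Such data differ from the measured groups, so that run does not bear on the choice of scale. Depth has no counterpart here, and 4 wells per group limit the precision.

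The members, the lists and the median scaling were chosen with earlier results of these data known, and the hairpin ratios after the data were seen. Named miRNAs were the 12 largest rises and falls that passed on both scales, the 4 markers, all members of the muscle, blood cell and epithelial lists, up to 4 members of each other list, those detected in 1 group, opposite calls, the largest day 3 differences, both arms of each hairpin and seed-sharing or neighbouring miRNAs. Alternatives were the normalizer, the Ct limit, the groups fitted, the variance model, a 2-fold minimum and each well left out.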

Additional observations from a re-analysis of the deposited data

Results flagged for a closer look

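In 19 of the 237 groups of 4 wells that were checked, 1 well stood apart from the other 3, by Dixon's limit for the gap to the nearest well as a share of the range. Chance gives about 1 in 20 such groups. The values are the well minus the mean of the other 3, as log2 levels relative to the median miRNA.

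At baseline, the first well stood apart for miR-323-3p (2.45), miR-339-3p (0.79), miR-369-3p (-0.71), miR-34a (-0.55) and miR-128a (-0.09). The second did so for miR-199a-5p (-2.37) and miR-194 (-0.26), the third for miR-337-3p (0.37), and the fourth for miR-34c (1.64), miR-31 (1.22) and let-7a (0.71). Without that well, miR-34c would start from a lower level, so the well makes its rise the smaller.

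At day 1, the first well stood apart for miR-125a-3p (-0.99), let-7a (0.82), miR-138 (0.56) and miR-342-5p (0.25). The second did so for miR-222 (0.35), and the third for miR-335-3p (-0.68), miR-542-5p (0.60) and miR-199a-3p (-0.52). The ratio of the miR-335 arms and that of the miR-125a arms passed with each well left out.

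3 miRNAs were called lower than baseline at day 1 and higher than baseline at day 3, on both scales each time. Both calls share the baseline wells, so the difference between the days is given as well. The 3 were listed because of these opposite calls and a difference between the days. The p-values of that difference are thus no separate check. miR-370 differed by 5.64 ± 0.68 (SE) between day 3 and day 1 relative to the median miRNA, miR-323-3p, whose day 1 call against baseline was lost without the first baseline well (-0.65), by 3.62 ± 0.49 and miR-34a by 2.57 ± 0.13 (limma, adjusted p = 2.49e-07, 1.27e-06 and 5.09e-13), and by 6.43, 4.41 and 3.36 relative to U6. None of the 3 day 1 calls against baseline held with those groups fitted alone (limma, adjusted p = 0.0626 for miR-370, 0.135 for miR-323-3p and 0.0656 for miR-34a).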

How the results depend on the processing

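All 19 rises kept their sign under the 12 scalings, and the 82 falls did so under all but Y1 and raw Ct. For the rises this follows from their definition, except under quantile scaling. The counts of calls stayed within 1.5 times of those reported under every alternative run except those given here. Relative to snoRNA135, 39 miRNAs were higher and 133 lower, and relative to Y1, 188 were higher and 2 lower. Higher calls made up 62.3% of calls with raw Ct, 42.4% with quantile scaling, 44.4% with the mean Ct of the miRNAs and 38.3% with the mean of snoRNA135, snoRNA202 and U87. Between day 3 and day 1, the median scale alone called 103 miRNAs lower.

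A control RNA as reference moves all miRNAs of a well together. The cause of the change under quantile scaling was not tested. The lists that follow cover only the 66 named miRNAs that passed on both scales or were called in opposite directions. Other named miRNAs, called higher against the median miRNA alone, were also negative relative to U6. Among them were miR-21 (1.43 and -0.48), miR-16 (1.53 and -0.38), miR-451 (1.58 and -0.33) and miR-222 (1.66 and -0.25). The named miRNAs whose sign turned relative to Y1 were miR-128a (0.048), miR-100 (0.050), miR-99a (0.083), miR-190 (0.18), miR-30c (0.19), miR-499 (0.22), miR-345-3p (0.35), miR-370 (0.35), miR-329 (0.64), miR-30b (0.69), miR-337-3p (0.70), miR-543 (0.70), miR-345-5p (0.72), miR-29c (0.78), miR-26a (0.96), miR-434-3p (1.00), miR-369-3p (1.04), let-7f (1.17), miR-331-3p (1.2025), miR-125b-5p (1.21), miR-489 (1.27), let-7d (1.31), miR-30e (1.37), miR-434-5p (1.38), miR-145 (1.42), let-7a (1.48), miR-323-3p (1.495), miR-30a (1.58), miR-199a-3p (1.66), miR-369-5p (1.76), miR-335-5p (1.89), miR-337-5p (2.01), miR-497 (2.20), miR-218 (2.21), miR-203 (2.23), miR-34a (2.32) and miR-324-5p (2.41). Relative to U6 they were miR-340-3p (-1.25), miR-449a (-1.16), miR-192 (-1.09), miR-92a (-0.99), miR-532-3p (-0.98), miR-542-3p (-0.97) and miR-139-5p (-0.81), and relative to snoRNA135 miR-340-3p (-0.69), miR-449a (-0.61), miR-192 (-0.54), miR-92a (-0.44), miR-532-3p (-0.42), miR-542-3p (-0.42) and miR-139-5p (-0.26). Quantile scaling turned miR-449a (-0.043) and ended the calls of miR-133a (-0.99), miR-139-5p (0.32) and miR-542-3p (0.10), and raw Ct turned miR-324-5p (0.060).

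Leaving out each of the 8 wells in turn gave 83 to 87 higher and 78 to 83 lower calls relative to the median miRNA, and 17 to 24 and 125 to 142 relative to U6. On both scales together these fits gave 17 to 24 and 78 to 83, day 3 against day 1 gave 51 to 68 higher and 19 to 32 lower, and the hairpin ratios 7 to 9, including the 7 reported each time. Of 66 named miRNAs, miR-324-5p lost its call in 4 of the 8 fits (without the second or the third baseline well, or the third or the last day 1 well, -0.23 to -0.29) and miR-323-3p in 3 (-0.65 without the first baseline well, -0.91 and -1.03 without the second or last day 1 well). miR-203, miR-497 and miR-449a lost it in 2, miR-449a without the last baseline well (0.49) or the second day 1 well (0.48). Fitting the day 1 and baseline groups alone cost 6 of them their call (miR-497, miR-370, miR-34a, miR-449a, miR-323-3p and miR-324-5p), and a 2-fold minimum cost 14. No paired analysis was possible because the values carry no replicate label. The alternatives for hairpin ratios and list medians were chosen after seeing the data. Signal near Ct 35 limits miR-200a, miR-351 and the miRNAs given as bounds. Other called miRNAs also had wells over Ct 32, among them miR-141, miR-467d, miR-107, miR-370 and miR-323-3p. With a Ct limit of 32, 203 miRNAs were tested, 15 were higher and 79 lower on both scales. Of the 66 named miRNAs, 59 were then still tested, and those kept their calls.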

Other observations

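The 15 miRNAs called higher relative to the median miRNA and lower relative to U6 lie in the gap between the scales. They include miR-139-5p, a miRNA of vessel and blood cells, at 1.10 and -0.81, the miR-17-92 member miR-92a at 0.91 and -0.99, the liver miRNA miR-192 at 0.81 and -1.09, and miR-449a, of the miR-34 seed family, at 0.75 and -1.16. miR-139-5p went from 17.33, 17.39, 17.26 and 17.24 to 16.11, 15.97, 15.32 and 15.89, and its adjusted p relative to U6 was 0.0484 (limma).

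In some assays the day 1 wells fell into 2 pairs, a pattern picked out after the values were seen. The first and second wells lay above the other 2 by over 1 cycle in miR-107 (33.00 and 34.17 against 29.74 and 30.21), miR-370 (33.19 and 34.58 against 30.25 and 30.18), miR-486 (30.52 and 31.17 against 28.28 and 28.84) and miR-429 (28.57 and 28.45 against 25.95 and 26.28). In miR-223 the same wells read 11.93 and 11.87 against 11.47 and 12.02. miR-298 was the 1 miRNA detected in neither group, with baseline wells at 39.40, 35.89, 40 and 38.49 and all 4 day 1 wells at 40.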
